A study of Homo sapiens with 12 samples.

Results

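The 10 transcripts described here are read from the mitochondrial genome: 8 mRNAs for subunits of the respiratory chain and ATP synthase (MT-ND1, MT-ND2, MT-ND4, MT-CYB, MT-CO1, MT-CO2, MT-CO3 and MT-ATP6) and the 2 ribosomal RNAs of the mitochondrial ribosome (MT-RNR1 and MT-RNR2). They were taken by gene symbol from a deposited expression table of 13881 genes in which all 10 were found. All 10 were among the 13353 genes tested, and 5 further mitochondrial mRNAs in the table are described beside them. The libraries were made from total RNA of KG-1 and MOLM-14, established lines of human acute myeloid leukaemia, with a stranded total RNA kit. There were 4 groups of 3 libraries: KG-1 cells given ASLAN003 for 96 h, KG-1 cells given DMSO for 96 h, MOLM-14 cells given ASLAN003 for 96 h and MOLM-14 cells given DMSO for 96 h. ASLAN003 is an inhibitor of dihydroorotate dehydrogenase (DHODH) and DMSO is its solvent control. All 4 groups were grown in RPMI1640 medium with fetal bovine serum. The sources used here do not give the dose.

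Levels are in FPKM (RNA fragments scaled to transcript length and to the size of the library). Every level is therefore relative to the rest of its library and, apart from the rRNAs, can be compared between genes per unit of length. Levels of the rRNAs also depend on how ribosomal RNA was removed. The table holds no counts, and the depth behind each value is therefore unknown. In bulk RNA, fewer cells carrying a transcript and less of it per cell cannot be told apart. The labels say that each treatment was done in triplicate but not whether the replicates were separate cultures, so p-values measure the spread between these libraries only. Replicate 3 of KG-1 with ASLAN003 had the lowest level of its group for all 10 transcripts, and results that rest on it are given with and without it. All 9 myeloid markers examined were in the table. Their summed level was 1580 to 1640 FPKM in KG-1 with ASLAN003 and 628 to 668 FPKM in KG-1 with DMSO, and it was 3440 to 4770 FPKM in MOLM-14 with ASLAN003 and 1170 to 1260 FPKM in MOLM-14 with DMSO. None of the 4 erythroid markers was listed. Other markers were present at lower sums. Epithelial markers (3 of 4 listed) reached 36.3 FPKM in MOLM-14 with DMSO. In KG-1 with ASLAN003, fibroblast markers (1 of 4 listed) reached 10.7 FPKM and lymphoid markers (2 of 5 listed) 7.79 FPKM. The myeloid sum moved with the treatment in both lines. LYZ, the gene of lysozyme, averaged 846 FPKM with ASLAN003 and 91.7 FPKM with DMSO in KG-1. In MOLM-14 it averaged 3411 FPKM with ASLAN003 and 674 FPKM with DMSO. LYZ was the largest part of the sum in every group except KG-1 with DMSO. There MPO, the gene of myeloperoxidase, averaged 160.3 FPKM, CEBPA 154.7 FPKM and SPI1 123.2 FPKM. MPO had lower means with ASLAN003, 37.9 FPKM in KG-1 and 4.83 FPKM in MOLM-14, where it averaged 20.8 FPKM with DMSO. CEBPA averaged 122.2 FPKM with ASLAN003 in KG-1. In MOLM-14 it averaged 317 FPKM with ASLAN003 and 300.5 FPKM with DMSO. CD33 averaged 26.2 FPKM with ASLAN003 and 26.5 FPKM with DMSO in KG-1. The part of these markers in the mitochondrial results was not tested.

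Human mitochondrial DNA is a small circle whose strands are transcribed into long precursors that run through many genes. Most of these genes are separated by transfer RNAs, and excision of the transfer RNAs frees the individual mRNAs and rRNAs, which then reach different levels through different stability. The mRNAs encode core subunits of complexes I, III and IV and of ATP synthase, whose other subunits are made from nuclear genes. DHODH sits in the inner mitochondrial membrane, where it makes a pyrimidine precursor and passes its electrons to ubiquinone, the carrier that feeds complex III.

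Some mitochondrial reading frames share bases with a neighbour, which matters for values counted per gene. MT-ATP6 and MT-ATP8 lie on one bicistronic mRNA, as do MT-ND4 and MT-ND4L. MT-ATP6 also ends at the base where MT-CO3 starts, chrM:9207, which is not shown. The stretches around the overlaps on the bicistronic mRNAs are shown because reads from the capital letters belong to both genes of a pair. They were read from GENCODE 29 transcripts (GRCh38, plus strand) at chrM:8507-8592 and chrM:10740-10786, and 46 and 7 bases are shared.
MT-ATP8/MT-ATP6: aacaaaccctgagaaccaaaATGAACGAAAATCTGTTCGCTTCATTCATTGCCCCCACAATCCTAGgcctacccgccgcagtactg
MT-ND4L/MT-ND4: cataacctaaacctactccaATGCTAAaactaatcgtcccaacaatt

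Nuclear DNA carries old copies of mitochondrial genes, and 4 such copies on chromosome 1 had their own rows in the table. They match their mitochondrial gene closely: MTND2P28 differed from MT-ND2 at 17 of 1042 aligned bases (98.4% identity), MTATP6P1 from MT-ATP6 at 10 of 681 (98.5%), MTCO1P12 from MT-CO1 at 20 of 1542 (98.7%) and MTND1P23 from MT-ND1 at 7 of 365 (98.1%). The 60-base windows below are those with the most differences between gene and copy, and capitals mark the differing bases, which are all that separates reads of one from reads of the other. The windows are chrM:4899-4958 for MT-ND2 and chr1:630069-630128 for MTND2P28, and chrM:8642-8701 for MT-ATP6 and chr1:633811-633870 for MTATP6P1 (GENCODE 29, GRCh38, plus strand).
MT-ND2: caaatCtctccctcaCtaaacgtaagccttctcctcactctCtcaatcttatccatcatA
MTND2P28: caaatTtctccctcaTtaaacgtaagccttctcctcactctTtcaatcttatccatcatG
MT-ATP6: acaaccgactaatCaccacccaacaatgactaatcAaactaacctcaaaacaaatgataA
MTATP6P1: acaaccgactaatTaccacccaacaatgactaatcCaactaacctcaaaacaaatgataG

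The first comparison asked what ASLAN003 did to these transcripts in KG-1. Of the 10, 6 fell and 2 rose at an adjusted p under 0.05 (limma with Benjamini-Hochberg adjustment over all genes tested), where 33.7% of all genes tested passed the same threshold, 19.4% upwards and 14.3% downwards. Those that fell were mRNAs of complexes I, III and IV and of ATP synthase, and those that rose were both ribosomal RNAs. The remaining mRNAs, MT-CO1 and MT-CO2, did not pass. The median log2 change was -0.79 over the 8 mRNAs and 1.10 over the 2 rRNAs, beside 0.050 over all genes tested. All changes are on the log2(FPKM + 1) scale.

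Complex I is the NADH dehydrogenase that starts the respiratory chain, and MT-ND1, MT-ND2 and MT-ND4 encode parts of its proton-pumping membrane arm. MT-ND2 (chrM:4470-5511) had 1291, 1261 and 756 FPKM in KG-1 with ASLAN003, against 2180, 2162 and 2024 FPKM in KG-1 with DMSO. Every treated library lay below every DMSO library, and MT-ND2 fell by 0.98 on the log2 scale (SE 0.17, adjusted p = 0.000621). MT-ND1 (chrM:3307-4262) had 1598, 1494 and 848 FPKM with ASLAN003, against 2135, 2012 and 1625 FPKM with DMSO. The groups did not overlap, but the highest treated library came close to the lowest DMSO library. MT-ND1 fell by 0.59 (SE 0.21, adjusted p = 0.0445), and without replicate 3 of the treated group the log2 change was -0.31 with an adjusted p of 0.161. MT-ND4 (chrM:10760-12137) had 3071, 3171 and 1928 FPKM with ASLAN003, against 3989, 3815 and 3706 FPKM with DMSO. It fell by 0.53 (SE 0.16, adjusted p = 0.0221), and without replicate 3 the log2 change was -0.30 with an adjusted p of 0.0508. The same call was lost without DMSO replicate 1 (adjusted p = 0.146 for MT-ND1 and 0.0735 for MT-ND4) and without DMSO replicate 2 (adjusted p = 0.12 for MT-ND1 and 0.0582 for MT-ND4). MT-ND1 also missed the threshold without MOLM-14 ASLAN003 replicate 1 (adjusted p = 0.0591) and without MOLM-14 DMSO replicate 2 (0.0516) or 3 (0.057), which enter the shared estimate of spread. Under quantile normalization the log2 changes of MT-ND1 and MT-ND4 turned to 0.10 and 0.086, and MT-ND2 kept its sign but not its call (adjusted p = 0.325). Rescaling each library by its FPKM outside 191 mitochondrial, histone, ribosomal RNA and small RNA genes also ended the calls of MT-ND1 (adjusted p = 0.134) and MT-ND4 (adjusted p = 0.0997).

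Cytochrome b, made from MT-CYB (chrM:14747-15887), is the mitochondrially encoded subunit of complex III and forms its ubiquinone sites. MT-CYB had 812, 692 and 472 FPKM in KG-1 with ASLAN003, against 1511, 1438 and 1432 FPKM in KG-1 with DMSO. The highest treated library held far less than the lowest DMSO library, and MT-CYB fell by 1.18 on the log2 scale (SE 0.16, adjusted p = 0.000114).

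Complex IV, cytochrome c oxidase, takes its catalytic core from MT-CO1, MT-CO2 and MT-CO3, and 1 of these 3 mRNAs passed the test. MT-CO3 (chrM:9207-9990) had 2254, 2434 and 1454 FPKM in KG-1 with ASLAN003, against 5070, 4997 and 4528 FPKM in KG-1 with DMSO. Its groups were well apart, and with a fall of 1.28 (SE 0.15, adjusted p = 4.16e-05) it had the largest decrease of the 10. MT-CO1 (chrM:5904-7445), which encodes the subunit that holds the oxygen-reducing site, had 5105, 5400 and 3635 FPKM with ASLAN003, against 4556, 4463 and 4560 FPKM with DMSO. Treated libraries lay on both sides of the DMSO libraries, and the log2 change was 0.037 (SE 0.14, adjusted p = 0.872; 95% interval half-width 0.31). MT-CO2 (chrM:7586-8269), whose product receives electrons from cytochrome c, had 5434, 5917 and 3622 FPKM with ASLAN003, against 6067, 5975 and 5307 FPKM with DMSO. These groups overlapped too, with a log2 change of -0.24 (SE 0.17, adjusted p = 0.291).

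MT-ATP6 (chrM:8527-9207) encodes the subunit of ATP synthase through which protons re-enter the matrix. It had 2034, 2155 and 1102 FPKM in KG-1 with ASLAN003, against 3479, 3491 and 3112 FPKM in KG-1 with DMSO. No treated library reached the DMSO range, and MT-ATP6 fell by 0.99 (SE 0.19, adjusted p = 0.0018; 0.462 under quantile normalization). MT-ATP8, which shares its mRNA and the 46 bases shown above, fell by 0.95 (adjusted p = 0.00146).

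The 12S and 16S ribosomal RNAs, MT-RNR1 (chrM:648-1601) and MT-RNR2 (chrM:1671-3229), form the small and large subunits of the mitochondrial ribosome. MT-RNR1 had 311, 352 and 231 FPKM in KG-1 with ASLAN003, against 153, 137 and 132 FPKM in KG-1 with DMSO. MT-RNR2 had 1564, 1829 and 1049 FPKM with ASLAN003, against 714, 633 and 615 FPKM with DMSO. Even the treated library in which all 10 transcripts were lowest held more of both rRNAs than any DMSO library. MT-RNR1 rose by 1.06 (SE 0.16, adjusted p = 0.000298) and MT-RNR2 by 1.14 (SE 0.17, adjusted p = 0.000264). The sources used here do not say how ribosomal RNA was removed from these libraries, and the level of any rRNA depends on that step. The 5 nuclear ribosomal RNA rows of the table took 0.16%, 0.126% and 0.139% of listed FPKM in KG-1 with ASLAN003, against 0.0718%, 0.4% and 0.11% in KG-1 with DMSO. They overlapped through DMSO replicate 2 alone, and the other DMSO libraries lay below all treated ones. The part of rRNA removal in the mitochondrial rRNA result was not tested.

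**Figure D1:**
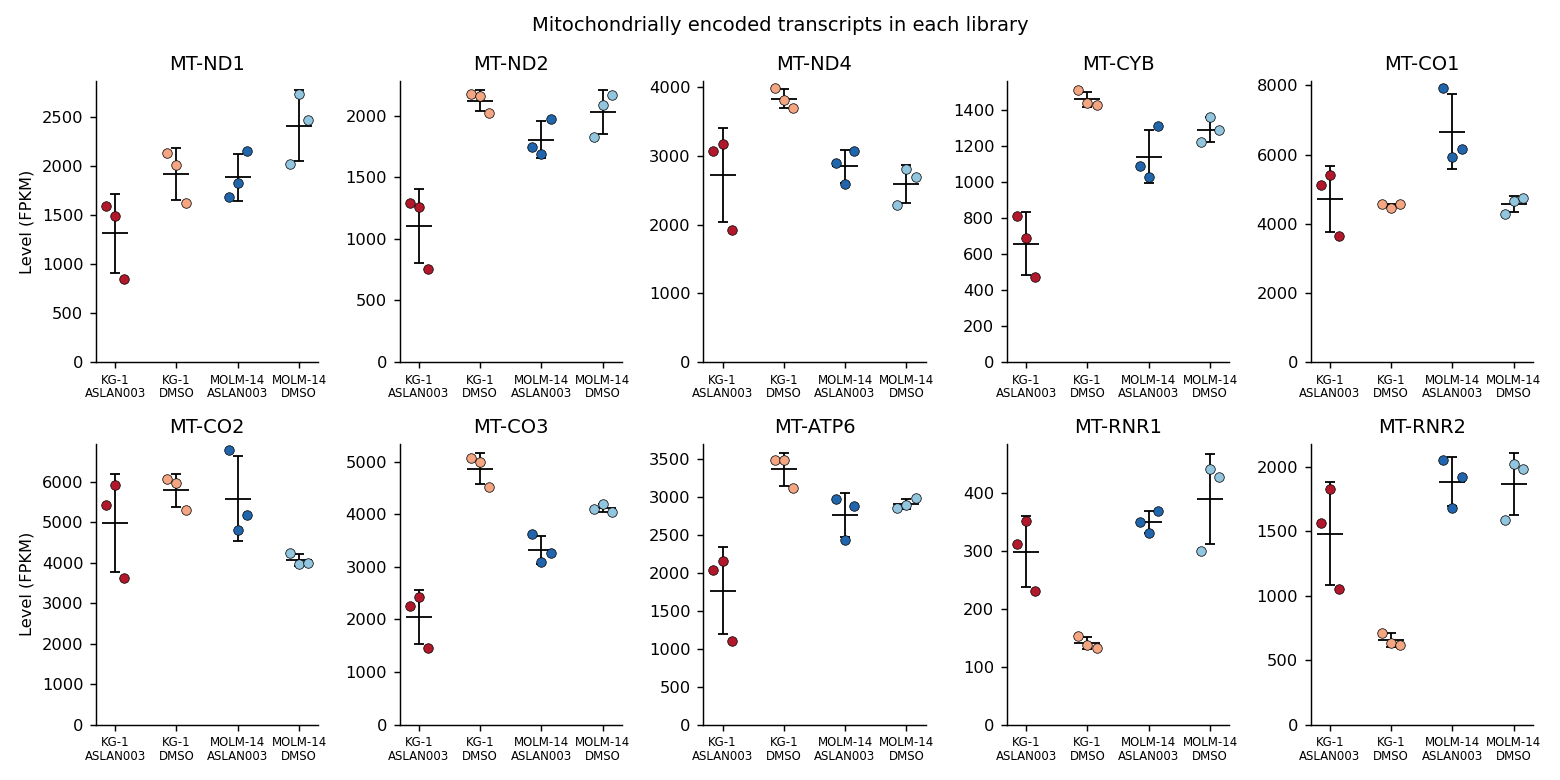
Level in FPKM (vertical axes, from 0) of each of the 10 transcripts in every library; points are libraries in the order of their replicate numbers, and bars are the mean ± SD of 3. In KG-1 both rRNAs lay higher and 6 mRNAs lower with ASLAN003, and replicate 3 of KG-1 with ASLAN003 was the lowest of its group in every panel.

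The same comparison was made in MOLM-14. Of the 10 transcripts only MT-CO1 passed, upwards, where 13.0% of all genes tested passed (9.69% upwards and 3.33% downwards). The median log2 change was -0.12 over the 8 mRNAs and -0.059 over the 2 rRNAs, beside 0.076 over all genes tested. MT-CO1 had 7912, 5922 and 6160 FPKM in MOLM-14 with ASLAN003, against 4293, 4668 and 4747 FPKM in MOLM-14 with DMSO. It rose by 0.53 (SE 0.14, adjusted p = 0.0266), and every treated library exceeded every DMSO library. Without treated replicate 1, the highest library, the log2 change was 0.40 with an adjusted p of 0.066, and leaving out any one DMSO library also lost the call (adjusted p 0.0583 to 0.0904), as did centring of library medians (0.0805).

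The other complex IV mRNAs of MOLM-14 did not pass, although their libraries did not overlap. MT-CO2 had 6779, 4806 and 5166 FPKM with ASLAN003, against 4239, 3972 and 4002 FPKM with DMSO (log2 change 0.44, SE 0.17, adjusted p = 0.103). MT-CO3 had 3625, 3101 and 3262 FPKM with ASLAN003, against 4098, 4204 and 4053 FPKM with DMSO (log2 change -0.31, SE 0.15, adjusted p = 0.206). Both passed when KG-1 ASLAN003 replicate 3 was left out of the joint fit (adjusted p = 0.0302 for MT-CO2 and 0.0262 for MT-CO3). These and MT-CO1 make 3 of 10 transcripts whose groups did not overlap, where 25.9% of all genes tested showed the same. In KG-1 the corresponding figures were 8 of 10 and 55.9%.

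MT-CYB, the largest decrease of KG-1 outside complex IV, had 1089, 1029 and 1310 FPKM in MOLM-14 with ASLAN003, against 1225, 1363 and 1290 FPKM in MOLM-14 with DMSO. These ranges overlapped, with a log2 change of -0.18 (SE 0.16, adjusted p = 0.5; 95% interval half-width 0.35). MT-ATP6 had 2968, 2433 and 2879 FPKM with ASLAN003, against 2857, 2887 and 2979 FPKM with DMSO (log2 change -0.080, adjusted p = 0.841). For the complex I mRNAs the log2 changes were -0.35 for MT-ND1 (adjusted p = 0.308), -0.17 for MT-ND2 (adjusted p = 0.564) and 0.14 for MT-ND4 (adjusted p = 0.626), and all 3 had overlapping groups.

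The rRNAs of MOLM-14 showed no change that these libraries could resolve. MT-RNR1 had 350, 331 and 369 FPKM in MOLM-14 with ASLAN003, against 300.2, 442 and 428 FPKM in MOLM-14 with DMSO. MT-RNR2 had 2048, 1676 and 1920 FPKM with ASLAN003, against 1585, 2016 and 1984 FPKM with DMSO. The treated libraries lay within or close to the wider DMSO range. The log2 changes were -0.14 for MT-RNR1 (adjusted p = 0.64; 95% interval half-width 0.35) and 0.019 for MT-RNR2 (adjusted p = 0.968; half-width 0.37).

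**Figure D2:**
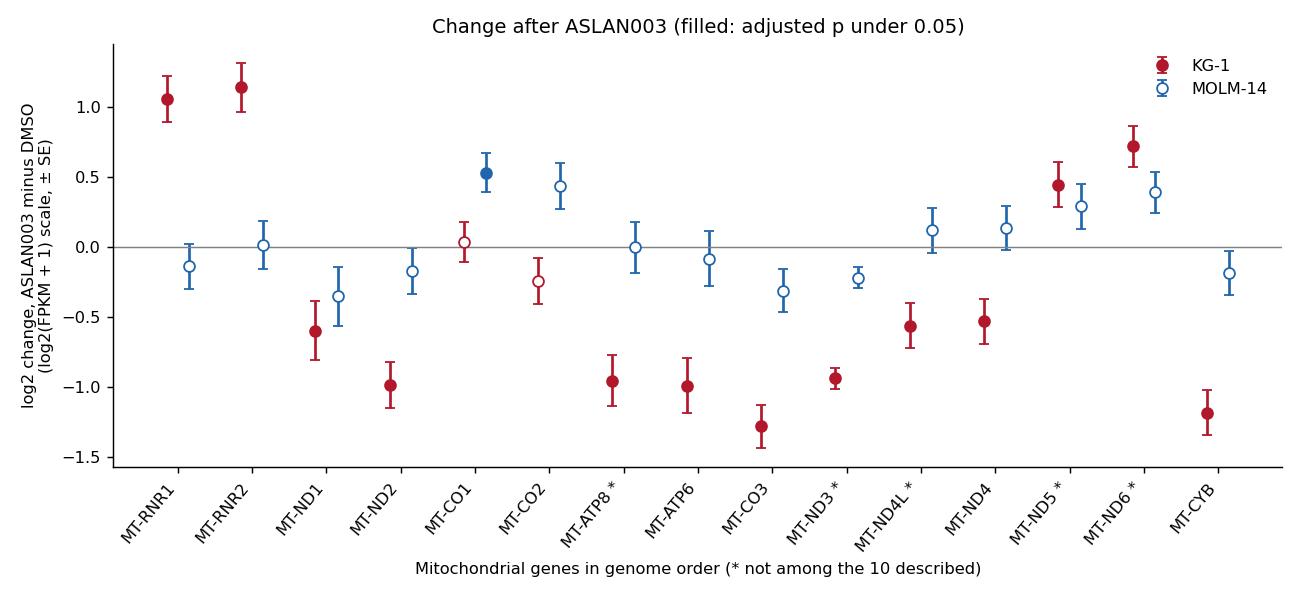
Log2 change of each of the 15 mitochondrial genes in the table, ASLAN003 minus DMSO, ± SE, in KG-1 (red) and MOLM-14 (blue), with genes in their order along the mitochondrial genome and filled points where the adjusted p was under 0.05. In KG-1 the rRNAs, at 1.06 and 1.14, stand against MT-CO3 at -1.28, while all MOLM-14 points lie between -0.35 and 0.53.

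Whether the response differed between the lines was tested directly, as the KG-1 change minus the MOLM-14 change; this uses all 12 libraries and so shares them with both comparisons above. Of the 10 transcripts 5 passed, where 9.94% of all genes tested did (5.05% with a more positive change in KG-1 and 4.89% with a more negative one). The difference was 1.2 for MT-RNR1 (SE 0.23, adjusted p = 0.00695) and 1.13 for MT-RNR2 (SE 0.24, adjusted p = 0.0128), that is, a more positive change in KG-1. It was -0.97 for MT-CO3 (SE 0.22, adjusted p = 0.014), -1.0 for MT-CYB (SE 0.23, adjusted p = 0.0157) and -0.82 for MT-ND2 (SE 0.24, adjusted p = 0.0465), a more negative change in KG-1. The MT-ND2 call was lost in 14 of 22 alternative fits, among them those without any one library of KG-1 with DMSO (adjusted p 0.0777 to 0.106) or of MOLM-14 with DMSO (0.0656 to 0.103), and those without MOLM-14 ASLAN003 replicate 2 (0.0555) or 3 (0.0891). The MT-CYB call was lost under quantile normalization (adjusted p = 0.0839). MT-ATP6 missed the threshold at -0.91 (adjusted p = 0.0559), and its difference was -0.60 with an adjusted p of 0.0159 without KG-1 ASLAN003 replicate 3 and -1.08 with an adjusted p of 0.0335 without replicate 2. MT-ND4 (-0.67, adjusted p = 0.0825), MT-CO2 (-0.68, adjusted p = 0.0881), MT-CO1 (-0.50, adjusted p = 0.141) and MT-ND1 (-0.24, adjusted p = 0.665) did not pass.

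Because all FPKM values of a library share one scale, each mRNA was also expressed as a share of the summed FPKM of the 8 mRNAs, a quantity that no rescaling of a library alters. These shares and the ratios below were chosen after the values were seen and are given as descriptions, with no test. The 8 shares of a library are parts of one sum, so a change in one mRNA moves the shares of the others. No rate of non-overlap over all genes was computed for such shares. MT-CO1 made up 24.6 ± 1.5% of the sum in KG-1 with ASLAN003 and 16.3 ± 0.93% in KG-1 with DMSO, and it made up 25.5 ± 1.9% in MOLM-14 with ASLAN003 and 19.03 ± 0.35% in MOLM-14 with DMSO (SD, n = 3 each). MT-CO2 took 25.9 ± 0.63% in KG-1 with ASLAN003 and 20.7 ± 0.48% with DMSO, and 21.4 ± 2.0% in MOLM-14 with ASLAN003 and 17 ± 1.4% with DMSO. MT-CO3 took 10.6 ± 0.19% in KG-1 with ASLAN003 and 17.4 ± 0.20% with DMSO, and 12.8 ± 0.38% in MOLM-14 with ASLAN003 and 17.2 ± 0.69% with DMSO. None of these 3 shares overlapped between treated and DMSO libraries in either line, so within complex IV the mix of mRNAs was displaced the same way in both. For the levels, the limma log2 change of MT-CO1 was 0.037 in KG-1 (adjusted p = 0.872) and 0.53 in MOLM-14 (adjusted p = 0.0266). The direct limma test of the difference between these 2 changes did not pass (-0.50, adjusted p = 0.141).

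The displacement of complex IV showed in single ratios. There were 2.27, 2.22 and 2.50 FPKM of MT-CO1 for each FPKM of MT-CO3 in KG-1 with ASLAN003, against 0.899, 0.893 and 1.01 in KG-1 with DMSO. In MOLM-14 the ratio was 2.18, 1.91 and 1.89 with ASLAN003, against 1.05, 1.11 and 1.17 with DMSO. Replicate 3 of treated KG-1, low in every transcript, did not stand apart downwards in this ratio. MT-CYB took 3.42% of the mRNA sum in KG-1 with ASLAN003 and 5.24% with DMSO, and 4.41% in MOLM-14 with ASLAN003 and 5.39% with DMSO, without overlap in either line. MT-ATP6 and MT-ND2 likewise had lower shares, without overlap, in the treated libraries of both lines: 8.99% against 12.1% (MT-ATP6) and 5.68% against 7.62% (MT-ND2) in KG-1, and 10.6% against 12.1% (MT-ATP6) and 6.98% against 8.46% (MT-ND2) in MOLM-14, each time ASLAN003 against DMSO. In MOLM-14 the FPKM levels of MT-ATP6 and MT-ND2 overlapped between the groups (log2 changes -0.080 and -0.17). MT-ND4 held 14.1% with ASLAN003 and 13.8% with DMSO in KG-1, and 10.99% with ASLAN003 and 10.79% with DMSO in MOLM-14, with overlapping groups in both. MT-ND1 overlapped in KG-1 (6.72% with ASLAN003, 6.88% with DMSO) but not in MOLM-14 (7.32% with ASLAN003, 10.0% with DMSO).

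**Figure D3:**
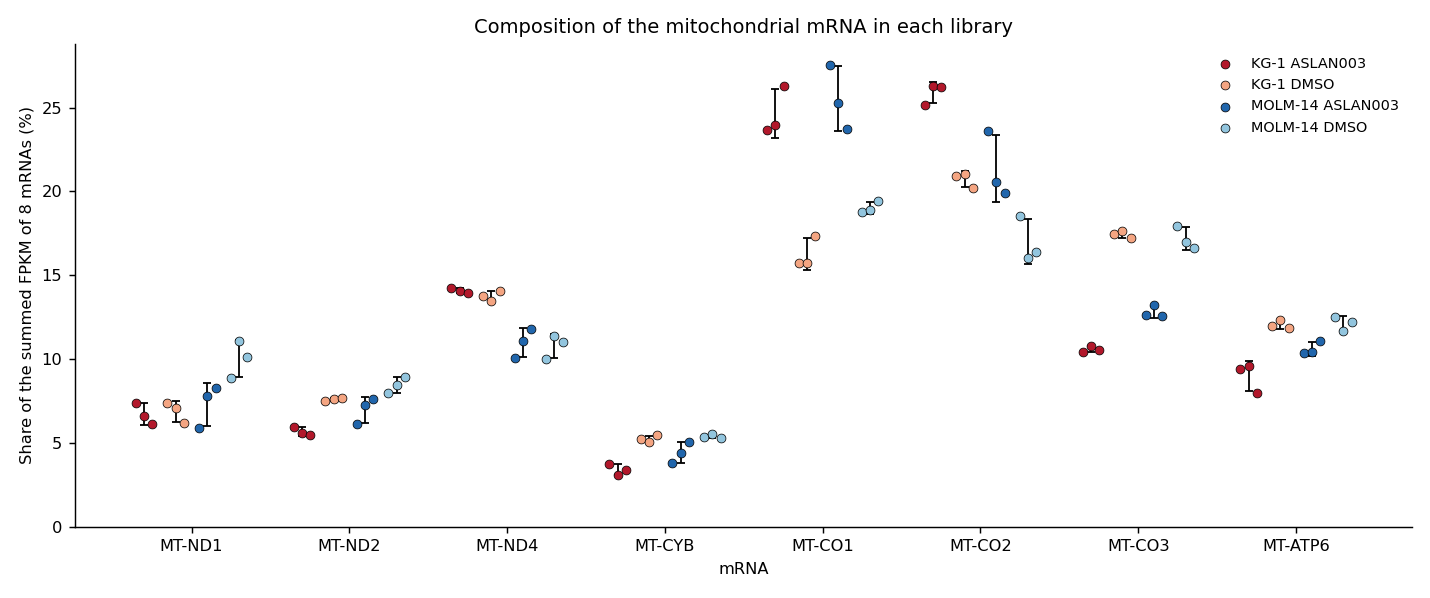
Share of each mRNA in the summed FPKM of the 8 mRNAs (%, vertical axis from 0), by library (points) with the mean ± SD of 3 (bars). In both lines MT-CO1 and MT-CO2 took more of the sum with ASLAN003, and MT-CO3, MT-CYB, MT-ND2 and MT-ATP6 took less.

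As a whole, the 8 mRNAs took 3.17%, 3.34% and 2.00% of all listed FPKM in KG-1 with ASLAN003, against 3.72%, 3.76% and 3.42% in KG-1 with DMSO. In MOLM-14 they took 3.89%, 2.89% and 3.38% with ASLAN003, against 2.75%, 2.93% and 2.90% with DMSO, which overlapped. The total of listed FPKM was itself lower with ASLAN003, without overlap, in both lines. Its mean was 682800 with ASLAN003 and 766900 with DMSO in KG-1, and 772000 with ASLAN003 and 839800 with DMSO in MOLM-14. The treated mean over the DMSO mean was therefore 0.693 for the mRNA sum in FPKM and 0.78 for its share in KG-1. In MOLM-14 these were 1.08 and 1.19. The KG-1 ratios rest partly on KG-1 ASLAN003 replicate 3. Without it the mean share in KG-1 with ASLAN003 was 3.253%, and with it 2.835%, beside 3.636% in KG-1 with DMSO. For every 100 FPKM of these mRNAs there were 8.68, 9.69 and 9.27 FPKM of rRNA in KG-1 with ASLAN003, against 2.99, 2.72 and 2.84 in KG-1 with DMSO. In MOLM-14 the figures were 8.36, 8.58 and 8.81 with ASLAN003, against 8.25, 9.94 and 9.88 with DMSO. KG-1 with DMSO was thus the group with little rRNA per mRNA, and the other 3 groups all lay between 8.25 and 9.94. These figures also depend on the unstated removal of ribosomal RNA, whose part was not tested. The ratio of MT-RNR2 to MT-RNR1 was 4.92 ± 0.35 with ASLAN003 and 4.65 ± 0.032 with DMSO in KG-1, and 5.38 ± 0.42 with ASLAN003 and 4.83 ± 0.39 with DMSO in MOLM-14 (SD, n = 3 each), with overlap in both lines.

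**Figure D4:**
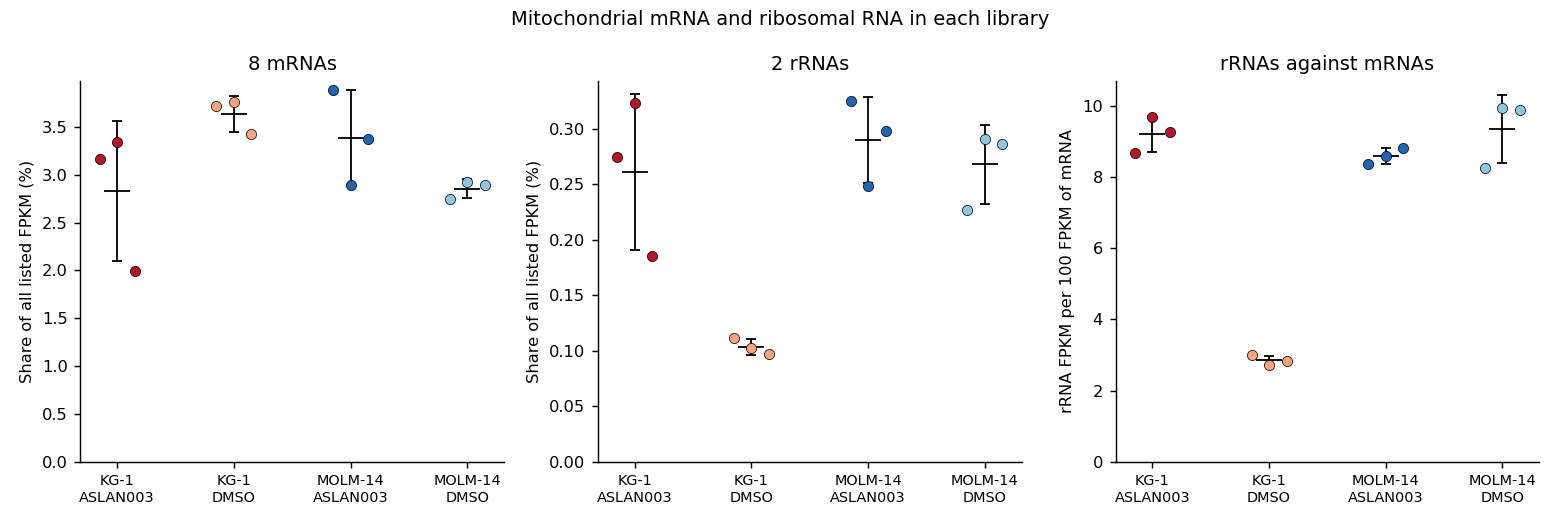
Share of all listed FPKM taken by the 8 mRNAs (left) and by the 2 rRNAs (middle), in percent, and rRNA FPKM per 100 FPKM of mRNA (right), by library (points) with the mean ± SD of 3 (bars), all axes from 0. KG-1 with DMSO lies at 2.72 to 2.99 FPKM of rRNA per 100 FPKM of mRNA, below the other 3 groups.

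The lines were also compared with each other in DMSO, which uses the same DMSO libraries as the treatment comparisons. Of the 10 transcripts 4 differed at an adjusted p under 0.05, where 49.2% of all genes tested did (27.1% higher and 22.1% lower in KG-1), and 7 had groups that did not overlap, where 63.3% of all genes tested had. MT-RNR1 was lower in KG-1 by 1.45 on the log2 scale (log2 difference -1.45, SE 0.16, adjusted p = 1.1e-05) and so was MT-RNR2 (log2 difference -1.50, SE 0.17, adjusted p = 1.33e-05). The part of rRNA removal in these rRNA differences was not tested. MT-ND4 was higher in KG-1 (log2 difference 0.57, SE 0.16, adjusted p = 0.0101), as was MT-CO2 (0.50, SE 0.17, adjusted p = 0.0233). The MT-CO2 call was lost without KG-1 DMSO replicate 1 (adjusted p = 0.0737) or 2 (0.0681), and without MOLM-14 DMSO replicate 2 (0.0643) or 3 (0.0607). The other mRNAs did not pass, with log2 differences from -0.33 for MT-ND1 to 0.24 for MT-CO3; MT-CO3 passed without KG-1 ASLAN003 replicate 3 (adjusted p = 0.0261).

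The order of levels, in FPKM, also differed by group. With ASLAN003, KG-1 had most MT-CO2 (mean 4991 FPKM) and MT-CO1 (4713 FPKM), whose libraries overlapped. MT-ND4 (2723 FPKM) came next, and from MT-ND4 and MT-CO3 down to MT-CYB the ranges of each neighbouring pair overlapped across libraries. Within each library, however, MT-ND4 exceeded MT-CO3, MT-CO3 exceeded MT-ATP6 and MT-ATP6 exceeded MT-RNR2. MT-ND1 likewise exceeded MT-ND2, and MT-ND2 exceeded MT-CYB. Only MT-RNR2 and MT-ND1 changed places between libraries. With DMSO, KG-1 had most MT-CO2 (5783 FPKM), then MT-CO3 (4865 FPKM) and MT-CO1 (4526 FPKM), which overlapped. MT-ND4, MT-ATP6, MT-ND2, MT-ND1, MT-CYB and MT-RNR2 (654 FPKM) followed. The ranges of MT-ND2 and MT-ND1 overlapped, but MT-ND2 was the higher in each of these libraries. In MOLM-14 with ASLAN003 the order was led by MT-CO1 (6665 FPKM) and MT-CO2 (5584 FPKM), and then MT-CO3 (3329 FPKM). The ranges of MT-CO1 and MT-CO2 overlapped, but MT-CO1 was the higher in each of these libraries. With DMSO, MOLM-14 had most MT-CO1 (4569 FPKM), then MT-CO3 (4118 FPKM) and MT-CO2 (4071 FPKM), which overlapped. In these libraries MT-RNR1 was the lowest of the 10 in all 4 groups, with no overlap with its neighbour. The sources used here do not say how ribosomal RNA was removed. The rank of an rRNA among the mRNAs therefore describes the libraries and not the cells.

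The 5 other mitochondrial mRNAs in the table were all tested, and in KG-1 3 fell and 2 rose. MT-ND3, a small complex I subunit, had 1316, 1242 and 1234 FPKM with ASLAN003, against 2378, 2421 and 2465 FPKM with DMSO, and fell by 0.94 (adjusted p = 2.96e-06). Unlike the 10 transcripts above, it was nearly level across the 3 treated libraries. MT-ND4L, on the mRNA of MT-ND4, fell by 0.56 (adjusted p = 0.0166), close to the 0.53 of its partner, and MT-ATP8 fell as given above. MT-ND6, the mRNA of the opposite strand (chrM:14149-14673, minus strand), had 1009, 1050 and 718 FPKM with ASLAN003, against 613, 569 and 483 FPKM with DMSO, and rose by 0.72 (SE 0.15, adjusted p = 0.00222). MT-ND5, which ends next to MT-ND6, had 953, 981 and 612 FPKM with ASLAN003, against 640, 612 and 577 FPKM with DMSO. These groups overlapped, and although MT-ND5 rose by 0.45 (adjusted p = 0.0492), the call held in only 8 of 23 alternative fits. The sources used here do not say whether reads were assigned by strand, so MT-ND6 reads and reads of the opposite strand over the same bases may not be separated. In MOLM-14 none of the 5 passed (limma, 2 at an unadjusted p under 0.05, smallest adjusted p = 0.086 for MT-ND3), and MT-ND6 had 1363, 1033 and 1252 FPKM with ASLAN003, against 906, 949 and 906 FPKM with DMSO (log2 change 0.39, adjusted p = 0.1). The difference between the lines passed for MT-ND3 (-0.72, adjusted p = 0.00197) and MT-ATP8 (-0.95, adjusted p = 0.0347); MT-ATP8 passed in 12 of 22 alternative fits.

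For the nuclear copies MTND2P28, MTATP6P1 and MTCO1P12 shown above, the level relative to the mitochondrial gene differed little between treated and DMSO libraries of a line. For every 100 FPKM of MT-ND2, MTND2P28 had 28.96 ± 1.5 FPKM in KG-1 with ASLAN003 and 28.67 ± 0.48 FPKM in KG-1 with DMSO, but 2.28 ± 0.29 FPKM in MOLM-14 with ASLAN003 and 2.51 ± 0.18 FPKM in MOLM-14 with DMSO (SD, n = 3 each). The copy's row thus tracked its gene within each line at levels that lay far apart between the lines. For every 100 FPKM of MT-ATP6, MTATP6P1 had 14.5 ± 0.64 FPKM with ASLAN003 and 13.9 ± 0.34 FPKM with DMSO in KG-1, and 14.2 ± 0.92 FPKM with ASLAN003 and 14.8 ± 0.94 FPKM with DMSO in MOLM-14. MTCO1P12 stayed between 0.832 and 1.16 FPKM per 100 FPKM of MT-CO1 in all 12 libraries, and MTND1P23 was near 0 throughout. Per 100 FPKM of MT-ND1 it averaged 0.0782 FPKM with ASLAN003 and 0.0523 FPKM with DMSO in KG-1, and 0.0306 FPKM with ASLAN003 and 0.0895 FPKM with DMSO in MOLM-14, with overlapping libraries in both lines. Adding each copy's FPKM to its gene left all calls of the 10 transcripts as they were in the 4 comparisons. It still bears on MT-ND2 between the lines. With DMSO, MTND2P28 averaged 608 FPKM in KG-1 and 51.1 FPKM in MOLM-14, beside 2122 and 2032 FPKM of MT-ND2. Between the lines in DMSO, 5 of the 10 had an unadjusted limma p under 0.05 with the copies added, against 4 without. The log2 difference of MT-ND2 there was 0.066, and -0.0077 to 0.39 over the 22 alternative fits.

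Nuclear genes that act on mitochondrial RNA were counted from lists drawn up for these transcripts. Of all genes tested, 14.3% were lower and 19.4% higher in KG-1, and 3.33% were lower and 9.69% higher in MOLM-14. Of 15 tested genes for mitochondrial transcription and its regulators, 2 fell and none rose in KG-1 (median log2 change -0.11), a share near that of all genes, and none passed in MOLM-14 (median -0.14; limma, 3 lower and 0 higher at an unadjusted p under 0.05). The 2 were TFAM, which packs mitochondrial DNA and starts its transcription (46.7 ± 4.7 FPKM with ASLAN003, 60.01 ± 2.8 FPKM with DMSO, log2 change -0.36, adjusted p = 0.0381), and MRPL12 (log2 change -0.63, adjusted p = 0.00213), a ribosomal protein that binds the mitochondrial RNA polymerase. Of 22 genes for processing, stability and decay of mitochondrial RNA, 5 fell and none rose in KG-1 (median -0.24), and 3 fell and 1 rose in MOLM-14 (median -0.26). LRPPRC and SLIRP form the complex that stabilises mitochondrial mRNAs. LRPPRC had 57.0 ± 5.7 FPKM with ASLAN003 and 98.0 ± 2.8 FPKM with DMSO in KG-1 and fell by 0.78 (adjusted p = 0.000383). SLIRP fell by 0.64 in KG-1 (143 ± 0.63 FPKM with ASLAN003, 225 ± 26 FPKM with DMSO, adjusted p = 0.000162) and by 0.48 in MOLM-14 (160 ± 8.7 FPKM with ASLAN003, 224 ± 11 FPKM with DMSO, adjusted p = 0.00501). PTCD2 (log2 change -1.08) and the RNA-degrading REXO2 (-0.65) were the other named decreases in KG-1. In MOLM-14, SUPV3L1, a helicase of RNA decay, fell by 0.58, HSD17B10, a part of mitochondrial RNase P, fell by 0.42, and TRNT1, which adds CCA ends to transfer RNAs, rose by 0.54. Over the 12 fits that each left out 1 library, the RNA processing genes that passed as lower numbered 4 to 9 in KG-1 (9 without MOLM-14 ASLAN003 replicate 1) and 1 to 5 in MOLM-14 (1 without any one DMSO library of either line or without MOLM-14 ASLAN003 replicate 1, and 5 without MOLM-14 ASLAN003 replicate 3).

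Of 16 genes for rRNA modification and mitochondrial ribosome assembly, 5 fell and 1 rose in KG-1 (median -0.22), and 2 fell in MOLM-14 (median -0.11). TFB1M, which methylates the 12S rRNA, had 8.10 ± 1.3 FPKM with ASLAN003 and 16.9 ± 0.60 FPKM with DMSO in KG-1 and fell by 0.99 (adjusted p = 0.00114). MRM1, a methyltransferase of the 16S rRNA, fell by 1.29 in KG-1 (adjusted p = 2.17e-05) and by 0.62 in MOLM-14 (adjusted p = 0.0135). RPUSD4, a pseudouridine synthase, fell by 0.77 in KG-1, and NGRN rose there by 0.66. In MOLM-14, RNMTL1, another 16S rRNA methyltransferase, fell by 0.58. The 6 calls of 16 in KG-1 stand beside 33.7% of all genes tested. The same rescaling gave 3 lower and 2 higher there, as few as 3 were lower without KG-1 DMSO replicate 1 or 2, and in MOLM-14 1 was lower without most single libraries. Of 19 genes for mitochondrial DNA maintenance, 3 rose and 4 fell in KG-1 (median -0.084) and 2 rose in MOLM-14 (median 0.14). POLG, the mitochondrial DNA polymerase, rose by 0.54 in KG-1 (adjusted p = 0.00564) and by 0.42 in MOLM-14 (adjusted p = 0.0461), and RRM2B, a ribonucleotide reductase subunit, rose by 0.77 in KG-1 (adjusted p = 0.00737) and by 0.69 in MOLM-14 (adjusted p = 0.0307). The MOLM-14 rises of POLG and RRM2B rest on few calls: none of the 19 passed without MOLM-14 ASLAN003 replicate 1 (limma, 5 higher at an unadjusted p under 0.05), MOLM-14 DMSO replicate 1 (3 higher and 3 lower) or MOLM-14 DMSO replicate 3 (2 higher and 3 lower), and 1 rose without any one KG-1 library. TOP1MT, the mitochondrial topoisomerase, fell by 0.66 and C10orf2, the Twinkle helicase, fell by 0.75 in KG-1. These medians lie near 0 and turned with the scaling: the rescaling gave 0.043 for transcription and 0.052 for DNA maintenance in KG-1 and 0.023 for rRNA modification in MOLM-14, and centring of library medians gave -0.0057 for DNA maintenance in MOLM-14. Of the transcription genes, 1 passed as lower in KG-1 without ASLAN003 replicate 1 or 3 or any DMSO library of that line, or without MOLM-14 DMSO replicate 2, and 5 without MOLM-14 ASLAN003 replicate 1. Of the DNA maintenance genes, 2 were lower in KG-1 without any one library of that line.

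The nuclear partners of the mitochondrially encoded subunits were counted by complex. In KG-1, 25 of 72 fell and 3 rose (median log2 change -0.14), where 14.3% of all genes tested were lower and 19.4% higher. In MOLM-14 1 fell and 1 rose (median -0.069), where 3.33% were lower and 9.69% higher. ATP synthase had the most calls in KG-1 for its size, with 9 of 15 lower and 1 higher (median -0.36). ATP5G1, a gene of the proton-carrying c-ring, had 138 ± 43 FPKM with ASLAN003 and 434 ± 56 FPKM with DMSO and fell by 1.68 (adjusted p = 5.16e-05), and ATP5D fell by 1.19 (adjusted p = 2.93e-05). Complex III had 4 of 9 lower (median -0.25), led by UQCRQ (-0.74, adjusted p = 0.00131). Complex IV had 3 of 11 lower (median -0.012), led by COX5A (-0.59, adjusted p = 0.000756). Complex I had 9 of 37 lower and 2 higher (median -0.079), led by NDUFA10 (-0.84, adjusted p = 1.54e-05). In MOLM-14 the 2 calls were in complex I, NDUFA9 (-0.54, adjusted p = 0.00883) and NDUFA12 (0.39, adjusted p = 0.0244). The MOLM-14 count turned with the settings: rescaling gave 8 higher and 0 lower of the 72, centring of library medians 0 higher and 9 lower, leaving out MOLM-14 ASLAN003 replicate 1 gave 4 higher and 1 lower (median 0.0047), and leaving out MOLM-14 ASLAN003 replicate 2 gave 0 higher and 3 lower. In KG-1, over the fits that left out 1 library, ATP synthase had 8 to 10 lower, complex I 5 to 10 (5 without KG-1 ASLAN003 replicate 1 or 2 or KG-1 DMSO replicate 1, and 6 without KG-1 DMSO replicate 2) and complex III 2 to 6 (2 without KG-1 ASLAN003 replicate 2 or KG-1 DMSO replicate 1). The median of complex IV turned to 0.019 without KG-1 ASLAN003 replicate 1 and 0.055 without KG-1 DMSO replicate 1. The same rescaling turned the KG-1 median of all 72 to 0.012 and gave 18 lower and 9 higher. It turned the medians of complex I (0.072) and complex IV (0.14) in KG-1 and of all 72 in MOLM-14 (0.066), while in KG-1 ATP synthase kept a negative median of -0.21 with 7 lower. DHODH itself had 8.72, 8.61 and 9.71 FPKM in KG-1 with ASLAN003, against 14.4, 11.9 and 12.7 FPKM in KG-1 with DMSO, and did not pass (log2 change -0.48, adjusted p = 0.0836). In MOLM-14 it had 9.40, 12.7 and 19.6 FPKM with ASLAN003, against 16.1, 16.2 and 15.03 FPKM with DMSO (log2 change -0.23, adjusted p = 0.509).

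Among the tested genes outside the mitochondrial genome, likeness to the mean log2 level of the 8 mRNAs was measured by Pearson's r over the 12 libraries after each line's mean was subtracted. MTATP6P1, the nuclear copy of MT-ATP6, came first (r = 0.972), followed by API5 (0.939) and by GXYLT2, IGSF10 and COL2A1 (0.935 each). GXYLT2, IGSF10 and COL2A1 were at or near 0 in MOLM-14 (at most 0.077 FPKM on average), so their likeness comes from KG-1. API5 had 69.7 ± 8.6 FPKM in KG-1 with ASLAN003 and 82.0 ± 3.7 FPKM in KG-1 with DMSO, without overlap, as had 55.9% of all genes tested. In MOLM-14 it had 66.1 ± 5.0 FPKM with ASLAN003 and 64.0 ± 1.8 FPKM with DMSO, with overlap. The libraries share their group structure, and these are the 5 highest of all genes tested, so the values describe likeness only.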

How the data were processed

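Per the submitters' processing notes, the authors used RSEM 1.2.25, STAR 2.4.2a and bcl2fastq 2.17.1.14 with builds hg38 and GRCh38; these sources do not name the gene annotation. Values as deposited are log2(FPKM + 1) and were turned back into FPKM; 20 gene symbols stored as dates were restored. The tested genes reached 1 FPKM in 3 or more of the 12 libraries and were tested on log2(FPKM + 1) with limma 3.58.1 in R 4.3.3 (all 4 groups in one fit, trend and robust variance, Benjamini-Hochberg adjusted p under 0.05). The fit was also run on simulated data with independent noise. These held few changed genes and no shift of a whole library, so they do not test the calls made here. Gene positions come from GENCODE 29, which held 99.3% of the gene IDs. The 10 transcripts and the gene lists were chosen with earlier results of these data known. The text names the 10, the other mitochondrial genes, DHODH, up to 4 called genes per list and line by size of change, and the 5 genes most like the mRNAs. Same-numbered libraries of a line did not deviate together (correlations -0.0019 to 0.1), so the numbers were not used as pairs. Alternatives covered the pseudocount, the low-value filter, library scaling, the model and each library left out; weighting of libraries and addition of nuclear copies were chosen after seeing the data. The precision is limited to 3 libraries per group.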

Additional observations from a re-analysis of the deposited data

Results flagged for a closer look

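For 5 of the 10 transcripts the change after ASLAN003 differed between the lines by the test of the difference itself, where 9.94% of all genes tested did. The KG-1 change minus the MOLM-14 change was 1.2 for MT-RNR1 and 1.13 for MT-RNR2 on the log2 scale. It was -0.97 for MT-CO3, -1.0 for MT-CYB and -0.82 for MT-ND2. The call of MT-ND2 was lost in 14 of 22 alternative fits, and that of MT-CYB under quantile normalization (adjusted p = 0.0839). For the rRNAs, KG-1 with ASLAN003 had 298 ± 61 FPKM of MT-RNR1 (SD, n = 3), near the 350 ± 19 FPKM of MOLM-14 with ASLAN003 and the 390 ± 78 FPKM of MOLM-14 with DMSO, and KG-1 with DMSO stood apart at 141 ± 11 FPKM.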

How the results depend on the processing

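MT-CYB, MT-CO3, MT-RNR1 and MT-RNR2 passed in KG-1, with one direction, in all 23 alternative fits. Quantile normalization, which gives the highest-ranked genes of all libraries the same values, left 4 of the 10 passing in KG-1 and gave 0.10 for MT-ND1 and 0.086 for MT-ND4; it gave 0.41 for MT-CO1 in KG-1 minus MOLM-14 under DMSO, and 3 transcripts passing in MOLM-14. In MOLM-14, where 1 passed, 0 passed with centred medians, with each line fitted alone, without trend and robust variance and with weighted libraries (limma, 2 to 4 at an unadjusted p under 0.05), and 2 passed with rescaling. In KG-1 6 passed with rescaling, and MT-ND1 kept its call in 11 of 23 fits. Among the limma fits that lost it were quantile normalization (adjusted p = 0.829) and each line fitted alone (0.107). Fits with no trend and robust variance (0.07) and with no filter on low values (0.0502) lost it too. Genes passing numbered 7014 in KG-1 with weights (4494 without). In MOLM-14 they numbered 953 with weights and 346 with the line fitted alone (1738 in the joint fit). The difference between lines gave 2226 with weights (1327 without). Leaving out single libraries gave 3316 to 5252 genes in KG-1, 1070 to 2319 in MOLM-14, 745 to 2357 for the difference between lines and 5561 to 7266 between lines in DMSO, and 6 to 8, 0 to 3, 4 to 6 and 3 to 5 of the 10 transcripts in these comparisons. In MOLM-14 the libraries that moved the gene count most were DMSO replicates 1 (1134 without it) and 2 (1070); for the difference between lines they were KG-1 ASLAN003 replicates 1 (775) and 2 (857), KG-1 DMSO replicates 1 (745) and 2 (809) and MOLM-14 ASLAN003 replicate 1 (2357). The cause was not tested. Shares of the 8 mRNAs became 3.88% in KG-1 with DMSO and 3.01% in MOLM-14 with DMSO when the 191 mitochondrial, histone, ribosomal RNA and small RNA genes were left out of the total. Centring moved the median of all genes by -0.12 in KG-1 and -0.15 in MOLM-14, and the share of calls that were higher to 42.7% and 44.1%; rescaling moved it by 0.13 and 0.12, with 72.7% and 88.1% higher. With the replicate number as a block, 7 transcripts passed in KG-1 (MT-ND1 adjusted p = 0.0514) and MT-ND2 no longer differed between lines (adjusted p = 0.0679); no other call of the 10 changed.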
